A study of Rattus norvegicus with 4 samples.

Results

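The SLC25 genes encode the mitochondrial carriers, the transporters that move metabolites across the inner mitochondrial membrane. They were followed in surface colonocytes, the absorptive epithelium on the luminal side of the rat distal colon. Members were the array rows whose single gene symbol was Slc25a followed by a number, with the row of highest mean kept per gene. This gave 32 genes of 13215 named genes, each with 1 row, and 14 of the 32 had a mean above 4 on the log2 scale. RefSeq lists 49 protein-coding rat genes with such symbols. The other 17, among them the ADP/ATP carrier genes Slc25a5 and Slc25a6, the aspartate-glutamate carrier genes Slc25a12 and Slc25a13 and the mitoferrin gene Slc25a28, had no row with a single symbol and were not analysed here.

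The cells came from 4 Wistar rats aged 12 weeks, all without adrenal glands for 4 days and drinking 0.9% NaCl. The control rats too thus lacked their main source of corticosteroids. The 2 aldosterone rats received 50 µg aldosterone per 100 g body weight as an injection under the skin and a minipump that released a further 10 µg/kg each hour, for 2 h. The 2 vehicle rats were injected with vehicle and carried pumps with the solvent, polyethylene glycol, alone. Colonocytes were then shaken off the inverted colon over 40 min, with 100 nM aldosterone or with vehicle in the solution, so that exposure in the animal and outside it cannot be told apart. Each array, an Affymetrix exon array, was hybridised with RNA of 1 rat, and the labels call the 2 arrays of a group biological replicates.

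Mitochondrial carriers share a fold built from repeats of a pair of membrane helices, and most exchange one metabolite for another. They supply the matrix with phosphate, ADP, fatty acids, amino acids and cofactors and let ATP, citrate and malate out. Surface colonocytes draw much of their energy from oxidation of bacterial short-chain fatty acids in mitochondria, and sodium absorption uses ATP through the sodium pump. The comparison of aldosterone with vehicle asks which genes differ soon after the hormone is given. In bulk RNA, fewer cells of a type and less RNA per cell cannot be told apart.

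All levels are log2 values as deposited. Different rows are read by different probes, so a higher level of one gene than another does not show more RNA. Of all rows, 65% had a mean below 3, near the floor of the arrays, as did 13 of the 32 carriers. A group has a mean ± SD over 2 rats, and differences are aldosterone minus vehicle. Sgk1, Tsc22d3, Fkbp5, Per1 and Scnn1g, genes known to respond to corticosteroids, stood higher in both aldosterone rats than in both vehicle rats, by 1.35 or more. Of 12 surface colonocyte markers 9 were measured, and 8 had means from 9.32 to 12.40. Without overlap, 5 of the 9 were higher in the aldosterone rats (16.7% of all rows) and 0 lower (11.1% of all rows). Among the 8 with a mean above 4 it was 4 higher and 0 lower, against 13.4% and 18.7% of all rows above 4. The 9 differences ran from -0.021 to 0.71, with 7 above 0 and 2 below. Slc26a3, the chloride-bicarbonate exchanger gene, was higher by 0.55. The measured markers of crypt, enteroendocrine, lymphoid, macrophage, muscle, fibroblast and endothelial cells had means below 4, except for Cd14 at 11.12, and erythroid markers were not read here. Of 3 goblet cell genes measured, Zg16 lay at 5.14 and 4.45 in vehicle rats and 6.39 and 8.06 in aldosterone rats. Tff3 lay at 11.12 and 10.74 against 9.44 and 11.30, and Agr2 at 7.89 and 7.91 against 7.69 and 8.52, both overlapping between groups. In all 3 the higher of the aldosterone values was that of replicate 2. The part of these cell type markers in the results below was not tested.

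**Figure D1:**
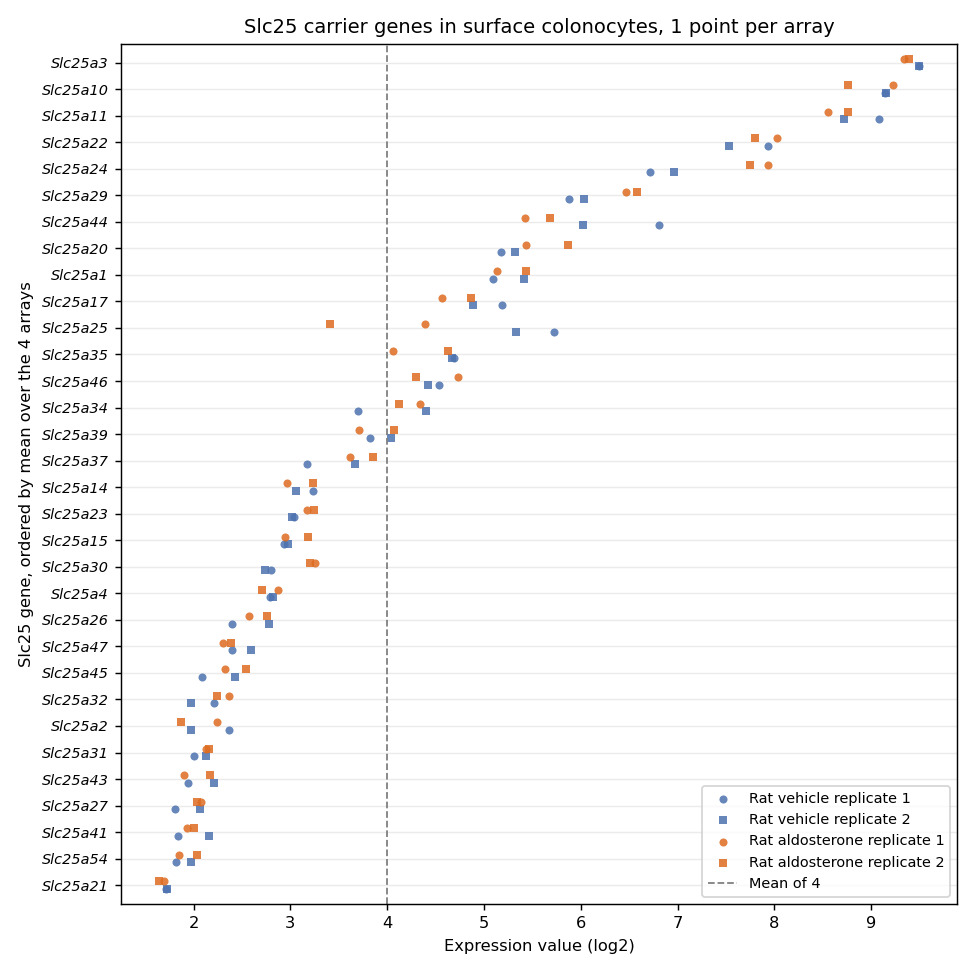
Log2 expression value (x axis) of the 32 Slc25 genes (y axis, ordered by mean) in each of the 4 arrays, vehicle in blue and aldosterone in orange, with circles for replicate 1 and squares for replicate 2. The dashed line marks a mean of 4, which 14 genes exceed. Slc25a3 at the top lies between 9.34 and 9.50, and the points of Slc25a24, Slc25a29, Slc25a44 and Slc25a25 separate by group.

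With a constant prior variance in limma, 0 of the 32 carriers and 0 of the 19403 rows (0.0%) had an adjusted p under 0.05. The lowest adjusted p among the carriers was 0.688, for Slc25a24. With a prior that follows expression level 21 rows passed (0.108%), again without a carrier. An unadjusted p under 0.05 was found for 5 carriers, Slc25a24, Slc25a29 and Slc25a30 higher and Slc25a25 and Slc25a44 lower with aldosterone. Over all rows this share was 4.53% (2.19% higher, 2.34% lower). Of the 14 carriers above 4 it was found for 2 higher and 2 lower, against 10.9% of all rows above 4 (4.55% higher, 6.31% lower). With 2 arrays against 2, an exact two-sided permutation test of a single gene cannot give less than 0.333.

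Among the 14 carriers with a mean above 4, the groups did not overlap in 8 genes, 3 higher and 5 lower with aldosterone. The same held for 32.1% of all rows above 4, with 13.4% higher and 18.7% lower. Over all 32 carriers it held for 14, 7 in each direction, against 27.8% of all rows (16.7% higher, 11.1% lower). A difference of at least 1.5-fold was seen in 3 of the 14, Slc25a24 higher and Slc25a25 and Slc25a44 lower, against 11.8% of all rows above 4 (4.98% higher, 6.79% lower). The median difference of the 14 was -0.051, against -0.041 over all rows above 4, with 7 carriers on each side of 0. The median size of their differences was 0.28, against 0.20 over all rows above 4. Within groups, the 2 vehicle arrays differed by a median of 0.27 in these carriers and the 2 aldosterone arrays by 0.28. The treatment difference was larger than both within-group differences in 6 of the 14 (Slc25a3, Slc25a24, Slc25a29, Slc25a44, Slc25a17 and Slc25a25) and in 20.2% of all rows above 4. For 13 of the 14 both group means exceeded 4. Slc25a25 passed through its vehicle mean alone, so the counts and the median over the 14 are descriptions. Just above the mark of 4 lay Slc25a34 at 4.14, Slc25a46 at 4.50 and Slc25a35 at 4.51, and just below it Slc25a39 at 3.91, Slc25a37 at 3.58 and Slc25a14 at 3.12.

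**Figure D2:**
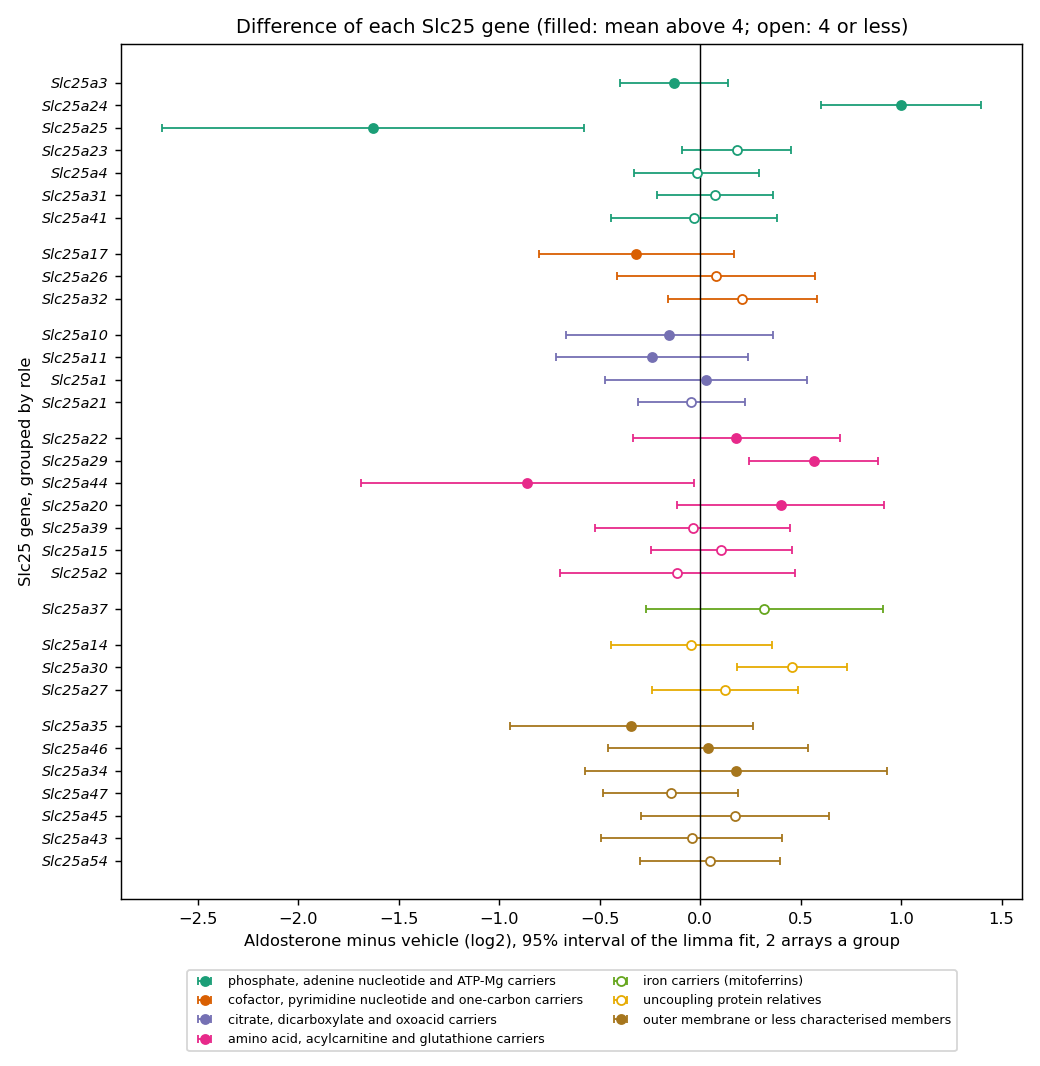
Aldosterone minus vehicle difference (x axis, log2) of each Slc25 gene (y axis, grouped and coloured by role) with the 95% interval of the limma fit, 2 arrays a group. Filled points have a mean above 4. The interval of Slc25a24 runs from 0.60 to 1.40 and that of Slc25a25 from -2.68 to -0.58, on opposite sides of 0.

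The ATP-Mg/phosphate carriers gave the lowest and the highest difference of the family. These proteins exchange ATP bound to magnesium for phosphate and thereby set the size of the adenine nucleotide pool of the matrix, and those encoded by Slc25a23, Slc25a24 and Slc25a25 are switched by cytosolic calcium. Slc25a24 (row 7198069) lay at 6.72 and 6.97 in vehicle rats and 7.94 and 7.75 in aldosterone rats. Both aldosterone values were higher than both vehicle values. The means were 6.84 ± 0.17 and 7.84 ± 0.14, a 2.00-fold difference (log2 difference 1.00, SE 0.15, unadjusted p = 0.00210, adjusted p = 0.688 in limma). Slc25a25 (row 7237652), whose transcript is known as a rapidly induced one in other tissues, lay at 5.73 and 5.33 in vehicle rats and 4.40 and 3.41 in aldosterone rats. Here both aldosterone values were lower, and the aldosterone rats stood 0.98 apart. The means were 5.53 ± 0.28 and 3.90 ± 0.70 (log2 difference -1.63, SE 0.38, unadjusted p = 0.0124, adjusted p = 0.853 in limma), a 3.09-fold lower value with aldosterone. Without aldosterone replicate 1 and with the prior that follows level, the adjusted p of Slc25a25 in limma was 0.000238, where the lone aldosterone rat is assumed to vary like the vehicle rats. With the constant prior and the same rat left out it was 0.522.

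Set against each other within an array, the log2 value of Slc25a24 exceeded that of Slc25a25 by 0.99 and 1.63 in the vehicle rats and by 3.54 and 4.34 in the aldosterone rats. This margin only adds the differences of the 2 genes, which were paired after their values were seen. Slc25a23, the third calcium-regulated carrier of the group, was low, at 3.03 and 3.02 in vehicle rats and 3.17 and 3.24 in aldosterone rats, where both values were higher. Slc25a41, the short form without the calcium-binding part, lay at a mean of 1.99 and overlapped between groups.

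The promoters of this pair are shown because their values differed in opposite directions under a steroid hormone. They are the RefSeq windows of 300 bases around the annotated start in the GRCr8 assembly, given 5′ to 3′ on the gene's strand. Slc25a24 is at chr2:199449175-199449474 on the plus strand and Slc25a25 at chr3:36116532-36116831 on the minus strand. Capitals mark the letters AGAACA (one arm of the glucocorticoid response element), TGACG (one arm of the cyclic AMP response element), CACGTG (an E-box) and CCAAT, each searched on both strands.
Slc25a24: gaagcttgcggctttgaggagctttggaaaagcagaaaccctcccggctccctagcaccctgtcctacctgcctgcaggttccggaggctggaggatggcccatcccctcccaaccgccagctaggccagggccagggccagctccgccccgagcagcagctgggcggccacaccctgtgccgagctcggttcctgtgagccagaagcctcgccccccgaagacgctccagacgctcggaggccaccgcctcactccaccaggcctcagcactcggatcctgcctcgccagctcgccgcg
Slc25a25: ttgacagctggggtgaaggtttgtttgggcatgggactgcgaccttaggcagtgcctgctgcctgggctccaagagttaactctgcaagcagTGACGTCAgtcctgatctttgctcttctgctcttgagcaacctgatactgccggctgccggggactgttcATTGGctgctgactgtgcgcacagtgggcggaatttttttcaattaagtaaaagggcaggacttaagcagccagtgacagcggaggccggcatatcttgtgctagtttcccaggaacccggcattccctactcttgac
The Slc25a24 window held none of these motifs. The Slc25a25 window held the full cyclic AMP response element TGACGTCA, in which the TGACG of both strands overlap, and 1 CCAAT box on the other strand. Of 27457 RefSeq promoters of this length, 1.91% held TGACGTCA, and among the 27 of 32 carriers with a promoter in the table Slc25a25 was the single one. The full glucocorticoid response element, AGAACA followed after 3 bases by its reverse complement, was in 0.00728% of all promoters and in 0 of the 27. Its arm AGAACA was in 20.1% of all and in 4 carriers (Slc25a1, Slc25a10, Slc25a22 and Slc25a43). TGACG was in 22.0% of all promoters and in 6 carriers, CACGTG in 6.65% and in 2, and CCAAT in 37.7% and in 16. A match of letters is a description and shows no binding.

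Among the other carriers of phosphate and adenine nucleotides, Slc25a3 had the highest level of the family. Slc25a3 encodes the phosphate carrier that feeds ATP synthase and lay at 9.49 and 9.50 in vehicle rats and 9.34 and 9.39 in aldosterone rats. The groups did not overlap, but the difference was small (-0.13, 95% interval -0.40 to 0.14). Slc25a4, the ADP/ATP carrier gene best known from heart and muscle, lay at 2.79 and 2.82 against 2.88 and 2.70, near the floor, and its difference was -0.017. Slc25a31, the ADP/ATP carrier gene of testis, had a mean of 2.11.

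Carriers of citrate, dicarboxylates and oxoacids overlapped between groups wherever their level was above 4. Slc25a10, which encodes the dicarboxylate carrier that exchanges malate or succinate for phosphate, lay at 9.14 and 9.15 in vehicle rats and 9.23 and 8.76 in aldosterone rats (difference -0.15, 95% interval -0.67 to 0.36). Slc25a11, the oxoglutarate-malate carrier gene of the malate-aspartate shuttle, lay at 9.08 and 8.72 against 8.55 and 8.77 (-0.24, interval -0.72 to 0.24). Leaving out vehicle replicate 1 brought Slc25a11 to -0.059, leaving out vehicle replicate 2 to -0.42 and leaving out aldosterone replicate 1 to -0.13. Slc25a1, the citrate exporter gene that supplies acetyl units for lipid synthesis, lay at 5.09 and 5.42 against 5.13 and 5.44. Its difference of 0.030 was small beside the 0.33 and 0.30 between the rats of each group. Slc25a21, the oxodicarboxylate carrier gene, was the lowest row of the family at 1.69.

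Of 7 measured carriers of amino acids, acylcarnitine and glutathione, 4 had a mean above 4, and 3 of these 4 had groups that did not overlap, against 32.1% of all rows above 4. Slc25a29, whose product carries basic amino acids such as arginine and lysine (row 7310462), lay at 5.88 and 6.04 in vehicle rats and 6.47 and 6.58 in aldosterone rats. The difference of 0.57 (SE 0.12, 1.48-fold, unadjusted p = 0.00788, adjusted p = 0.798 in limma) exceeded the 0.15 and 0.12 between the rats of each group. Slc25a44, a gene tied to uptake of branched-chain amino acids (row 7210648), lay at 6.81 and 6.03 in vehicle rats and 5.43 and 5.69 in aldosterone rats. The aldosterone values were the lower ones, with a difference of -0.86 (SE 0.30, unadjusted p = 0.0451, adjusted p = 1.00 in limma) that was -0.47 without vehicle replicate 1. Slc25a20, the carrier gene that brings acylcarnitines in for fatty acid oxidation (row 7340393), lay at 5.18 and 5.32 in vehicle rats and 5.43 and 5.87 in aldosterone rats. Its aldosterone values were higher by a mean of 0.40 (95% interval -0.12 to 0.92), less than the 0.44 between the 2 aldosterone rats. The difference of Slc25a20 was 0.62 without aldosterone replicate 1 and 0.18 without aldosterone replicate 2. Slc25a22, the mitochondrial glutamate carrier gene, lay at 7.94 and 7.53 against 8.02 and 7.80 and overlapped between groups. The ornithine carrier genes were low, Slc25a15 at 2.93 and 2.98 against 2.94 and 3.18 and Slc25a2 at a mean of 2.11. The glutathione carrier gene Slc25a39, at a mean of 3.91, differed by -0.037.

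**Figure D3:**
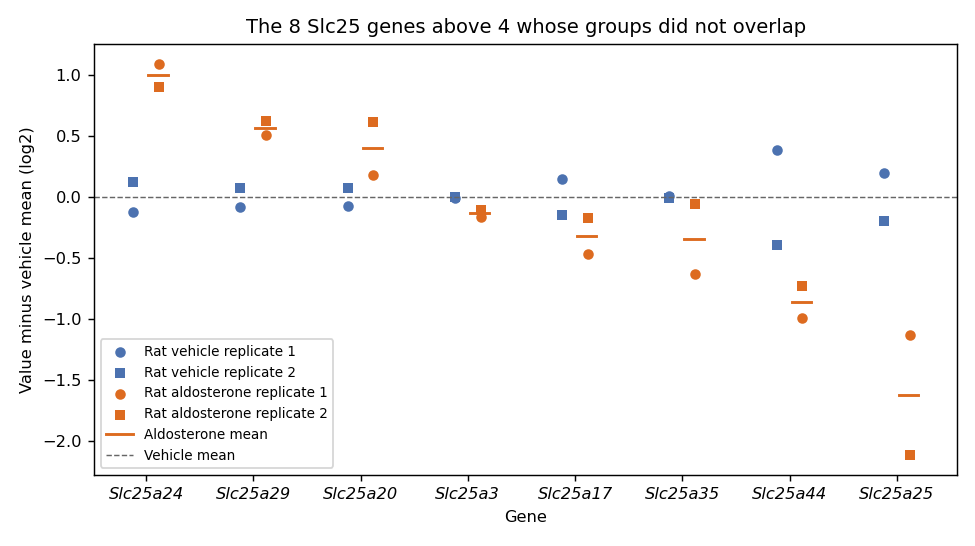
Value of each array minus the gene's vehicle mean (y axis, log2) for the 8 Slc25 genes with a mean above 4 whose groups did not overlap (x axis), vehicle in blue and aldosterone in orange, with a bar at the aldosterone mean. The bars run from 1.00 for Slc25a24 to -1.63 for Slc25a25, and the vehicle rats of Slc25a44 lie widest apart, at 6.81 and 6.03.

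The remaining roles held low rows for the most part. Slc25a17, the peroxisomal carrier gene for coenzyme A and related nucleotides, lay at 5.18 and 4.88 in vehicle rats and 4.56 and 4.86 in aldosterone rats. Its groups did not overlap, yet the nearest values were 4.88 and 4.86, and the difference was -0.32 (95% interval -0.80 to 0.17). It was -0.17 without replicate 1 of either group. Slc25a26, which carries S-adenosylmethionine, and Slc25a32, tied to folate and FAD transport, had means of 2.63 and 2.20. Slc25a37, the mitoferrin gene that supplies iron for heme and iron-sulfur clusters, lay at 3.17 and 3.66 against 3.61 and 3.85 and overlapped. Among relatives of the uncoupling proteins, Slc25a30 lay at 2.80 and 2.74 in vehicle rats and 3.25 and 3.20 in aldosterone rats. This difference of 0.46 (SE 0.099, unadjusted p = 0.00948, adjusted p = 0.814 in limma) stood on rows close to the floor. Slc25a14 and Slc25a27 had means of 3.12 and 2.00 and overlapped between groups.

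Of the outer membrane and less characterised members, 3 had a mean above 4. Slc25a35 lay at 4.70 and 4.67 in vehicle rats and 4.06 and 4.63 in aldosterone rats, so that 1 aldosterone rat was low and the other lay just below the vehicle rats. Slc25a46, an outer membrane protein gene of mitochondrial dynamics, lay at 4.53 and 4.43 against 4.73 and 4.30, with the aldosterone rats on both sides of the vehicle rats. Slc25a34 lay at 3.70 and 4.40 against 4.34 and 4.12. The other 4, Slc25a47, Slc25a45, Slc25a43 and Slc25a54, had means from 1.92 to 2.42.

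In pattern over the 4 arrays, with each gene centred on its own mean, the carrier nearest to Slc25a24 was Slc25a29, at a Euclidean distance of 0.49 on the log2 scale. Slc25a20 followed at 0.75, then Slc25a34 at 0.88, Slc25a22 at 0.94 and Slc25a46 at 1.01, and Slc25a25 was farthest at 2.72. The 4 points of each pattern come from the same 4 arrays. Slc25a24 was the reference for its smallest p, and values were not scaled, so the order largely restates the differences given above. In the GRCr8 gene order 3 pairs of carriers are next neighbours. Slc25a24 has Slc25a54 beside it, with overlapping gene spans, and Slc25a54 lay at 1.82 and 1.97 in vehicle rats and 1.85 and 2.04 in aldosterone rats. Slc25a29 neighbours Slc25a47, at a mean of 2.42, and Slc25a23 neighbours Slc25a41.

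Genes of mitochondrial transport outside the family were read from lists chosen by function. Of 5 carrier-fold genes under other symbols, 0 passed the adjusted threshold. Groups that did not overlap were found in 0 of these 5, against 27.8% of all rows, and 5 genes are few for such a share. Ucp2, the uncoupling protein gene of epithelia and immune cells, lay at 9.03 and 8.64 against 8.75 and 9.29, and Ucp1 and Ucp3 had means of 2.22 and 2.66. Mtch2 and Mtch1, carrier-like genes of the outer membrane, differed by 0.19 and -0.012. In the list of other mitochondrial membrane transport, 16 of 23 genes were measured, 0 passed, and the median difference was -0.011, against 0.024 over all rows. For the 11 genes with a mean above 4 it was -0.067, against -0.041 over all rows above 4. Slc8b1, which encodes the exchanger that releases calcium from mitochondria for sodium, lay at 6.79 and 6.34 in vehicle rats and 5.21 and 5.69 in aldosterone rats. Both aldosterone values were lower (difference -1.12, SE 0.25, unadjusted p = 0.0101, adjusted p = 0.837 in limma). Vdac3, a channel of the outer membrane, Abcb6, an ABC transporter gene, and Sfxn3, a sideroflexin gene, differed by 0.45, -0.39 and 0.30, with groups that did not overlap. Their 95% intervals all included 0 (-0.18 to 1.08, -1.04 to 0.25 and -0.25 to 0.85).

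The import route of carriers, which passes them through the outer membrane pore and small chaperones to the TIM22 complex, had 11 of 17 listed genes measured and 0 passed. Its median difference was 0.16, but -0.072 without aldosterone replicate 2 and 0.46 without aldosterone replicate 1. Tomm70, the receptor that binds incoming carriers, lay at 6.99 and 5.24 in vehicle rats and 7.54 and 7.07 in aldosterone rats, a mean difference of 1.19 (95% interval -0.56 to 2.95), with the vehicle rats farther apart than the group means. Timm8b, Tomm22 and Tomm20 differed by 0.41, 0.36 and 0.099 and overlapped between groups. Tomm40, the pore gene, was the 1 gene of the 11 with an unadjusted p under 0.05 in limma, against 4.53% of all rows. It stood higher by 0.40, at a mean of 3.51. With the prior that follows level its unadjusted p in limma was 0.139.

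Enzymes that work on the substrates of the carriers had 17 of 23 genes measured, with 0 past the constant prior and a median of -0.10. Arg2, the mitochondrial arginase that makes ornithine from arginine, lay at 4.09 and 4.28 in vehicle rats and 7.93 and 6.80 in aldosterone rats, and it passed with the prior that follows level (adjusted p = 0.00840 in limma). The arginine carrier gene Slc25a29 stood higher by 0.57, but it did not pass with that prior. Its unadjusted p in limma was 0.0899 with the prior that follows level, against 0.00788 with the constant prior. Both ornithine carrier genes were low and overlapped between groups. A link between Arg2 and these carriers was not tested. Cpt1a, which makes acylcarnitines at the outer membrane, lay at 8.82 and 8.74 in vehicle rats and 8.10 and 8.25 in aldosterone rats. Crat, the carnitine acetyltransferase gene, lay at 7.08 and 7.15 against 6.86 and 6.76. Both were lower with aldosterone, by means of 0.61 and 0.30 on the log2 scale. Cpt2, whose enzyme takes up the acylcarnitines that Slc25a20 brings in, lay at 4.15 and 3.94 against 4.11 and 4.65, with overlapping groups and a difference of 0.34. The adjusted p in limma was 0.757 for Cpt1a and 1.00 for Crat and Cpt2. Acly, the cytosolic enzyme that splits the exported citrate, lay at 6.52 and 6.58 against 6.34 and 6.13. Among 12 measured regulators of mitochondrial gene expression 0 passed, and the median was 0.033. Ppargc1b, a coactivator of mitochondrial genes, lay at 4.78 and 4.59 in vehicle rats and 6.41 and 5.25 in aldosterone rats (difference 1.15, adjusted p = 1.00 in limma). Its relative Ppargc1a lay at 7.10 and 6.93 against 7.78 and 7.04 and Esrra at 7.02 and 6.63 against 7.08 and 6.29, while Gabpa differed by 0.17. Those 3 overlapped between groups.

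**Figure D4:**
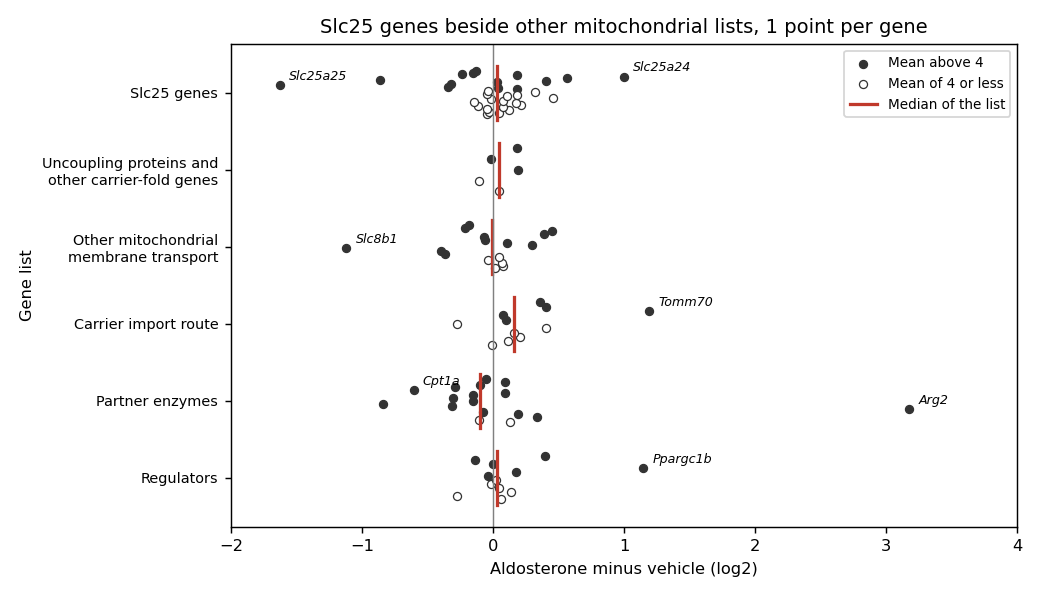
Aldosterone minus vehicle difference (x axis, log2) of each gene in the Slc25 family and in 5 other mitochondrial lists (y axis), filled where the mean is above 4, with a red bar at the median of each list. The medians lie between -0.10 and 0.16, while single genes such as Arg2 at 3.18, Ppargc1b at 1.15, Slc8b1 at -1.12 and Slc25a25 at -1.63 lie far from them.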

How the data were processed

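Expression was measured on 4 arrays, and the log2 values used here were deposited by the authors, with 1 value for each row. RMA, Affymetrix Expression Console and Partek are named, per the submitters' processing notes, with no version, order or role. RMA corrects background, makes arrays alike in distribution and summarises probes, and low rows lie close together near a floor. The log2 scale was read from the range, 1.36 to 13.7. The build is not given in the sources used here. The number of arrays limits the precision.

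Of 19403 rows, 13327 had 1 gene symbol in the platform annotation, 620 several and 5456 none here. All 32 carrier symbols matched RefSeq by Entrez ID. The fit covered every row and used limma 3.58.1 under R 4.3.3 (treatment as the only term, constant prior variance, two-sided, 95% intervals), and p-values were adjusted across the whole table by the method of Benjamini and Hochberg. The fits were also run on simulated data, in which the spread of a row depended on its level alone. No result here rests on that run. Values per array are given for carriers above 4 whose groups did not overlap, up to 6 per direction by smallest p, and for main carriers listed by name. Of each list up to 4 genes above 4 with the smallest p are named. Outside this rule, and chosen after their values were seen, are the array values of Slc25a23, Slc25a30, Slc25a34, Slc25a46, Slc25a54, Ucp2, Zg16, Tff3 and Agr2. The same holds for the list genes Ucp1, Ucp3, Cpt2, Slc26a3 and Tomm40. Members and lists were chosen with earlier results of these data known, so no test was made over a list. Alternatives were quantile normalization, arrays centred on their medians, filters on low rows, other priors, the replicate number as a block, each array left out, and averaging of rows that share a gene. Protein sequences were not used here.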

Additional observations from a re-analysis of the deposited data

How the results depend on the processing

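No carrier passed the adjusted threshold in limma under 12 alternatives. Over these and 5 more chosen after seeing the data, 10 of the 15 carriers followed by name kept the sign of their difference. Slc25a24 ranged from 0.88 to 1.12, Slc25a29 from 0.49 to 0.64, Slc25a44 from -1.25 to -0.47 and Slc25a25 from -2.12 to -1.13, with adjusted p from 0.319 to 0.990, 0.629 to 1.00, 0.620 to 1.00 and 0.000238 to 1.00. Slc25a11 ranged from -0.42 to -0.059, Slc25a17 from -0.47 to -0.17, Slc25a20 from 0.18 to 0.62, Slc25a35 from -0.63 to -0.059 and Slc25a37 from 0.070 to 0.57. With arrays centred on their medians Slc25a1 turned to -0.028. With an array left out, under either prior, Slc25a1 ran from -0.13 to 0.19 (-0.13 without vehicle replicate 1, -0.12 without aldosterone replicate 2), Slc25a22 from -0.023 to 0.38, Slc25a4 from -0.10 to 0.069, Slc25a10 from -0.39 to 0.079 and Slc25a15 from -0.016 to 0.22. The cause of these sign changes was not tested.

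Rows that passed numbered 12 with rows under a mean of 4 left out (also with the intensity trend added) and 21 with the trend. With the trend and an array left out they numbered 7 and 8 without vehicle replicates 1 and 2, and 137 and 142 without aldosterone replicates 1 and 2, with 0 to 1 carriers, the 1 being Slc25a25 without aldosterone replicate 1. Carriers with an unadjusted p under 0.05 in limma numbered 3 with that filter, the trend or both. The share of all rows under these settings is not given here, so this count is a description only. The median of the carriers above 4 was -0.11 with arrays centred, and from -0.13 to -0.022 with an array left out (-0.081 without aldosterone replicate 1). The median of the carrier-fold list was -0.012 with arrays centred, 0.18 with rows under 4 left out, with or without the trend, and -0.011 to 0.043 with an array left out. That of the partner enzymes was -0.16 with arrays centred and -0.15 to 0.0035 with an array left out (-0.022 without aldosterone replicate 2). With an array left out, the import route ran from -0.072 to 0.46 and the regulators from -0.037 to 0.25. Centring moved the median of all rows from 0.024 to -0.034.

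With the replicate number as a block, 0 rows passed and 5 carriers had an unadjusted p under 0.05 in limma. Slc25a44 no longer stood among them and Slc25a20 did. The share of all rows under 0.05 with the block is not given here, so the carriers cannot be set against it. Arrays of the same number deviated together at r = 0.093 over 4815 rows, and no label gives a shared litter or day, so the numbers were not taken as pairs.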
